A study of Mus musculus with 9 samples.

Results

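Regional identity of the small bowel was followed through 10 genes, chosen by name as rows of the deposited table of 31685 genes. They comprised 3 proximal genes, Gata4, Onecut2 and Pdx1, and 7 ileal bile acid genes, Slc10a2, Fabp6, Fgf15, Slc51a, Slc51b, Nr0b2 and Nr1h4. RNA came from the jejunum of 9 wild-type adult male C57BL/6J mice, with 3 mice in each of 3 groups, all of a single batch in the labels. Control mice were labelled as untreated, TAI mice received 12 Gy of total abdominal irradiation with X-rays, and TAI/IVIg mice received the same irradiation and 500 mg/kg of intravenous immunoglobulin, first given soon after irradiation. The tissue was taken on day 3. By the study's methods the TAI mice were given PBS in place of immunoglobulin. The labels and methods do not say how far along the jejunum each piece was cut, so position along the bowel and treatment cannot be told apart where they move together.

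The small intestine is a graded organ. Duodenum and upper jejunum express Gata4, a transcription factor that keeps ileal genes low in absorptive cells, as well as Pdx1 and Onecut2, transcription factors of the foregut and duodenum. The ileum takes up bile acids through the apical transporter Slc10a2, carries them inside the cell on the binding protein Fabp6 and releases them through the basolateral pair Slc51a and Slc51b. Inside these cells bile acids activate the nuclear receptor FXR, encoded by Nr1h4, which induces the hormone Fgf15 and the repressor Nr0b2 (SHP). The hormone Fgf15 in turn restrains bile acid synthesis in the liver.

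Against control, 2 of the 7 ileal bile acid genes were called lower in TAI, where 26.1% of all tested genes were, and 5 in TAI/IVIg, where 37.4% were. None was called higher, and Gata4, present in all 9 mice, was not called. Fabp6 averaged 7639 ± 468 FPKM in the control mice, 2259 ± 1129 in the TAI mice and 596 ± 654 in the TAI/IVIg mice (mean ± SD, n = 3). FPKM, the unit of all levels given here, is a read count scaled to transcript length and to library size. Of the 10 genes, 8 passed a filter of at least 1 FPKM in at least 3 mice and were tested with limma among 13056 genes. Onecut2 and Pdx1 stayed under 1 FPKM in every mouse and are given as values. A gene is called higher or lower where its Benjamini-Hochberg adjusted p was under 0.05, and log2 fold changes are those of FPKM + 1, which understates the change of low genes.

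**Figure D1:**
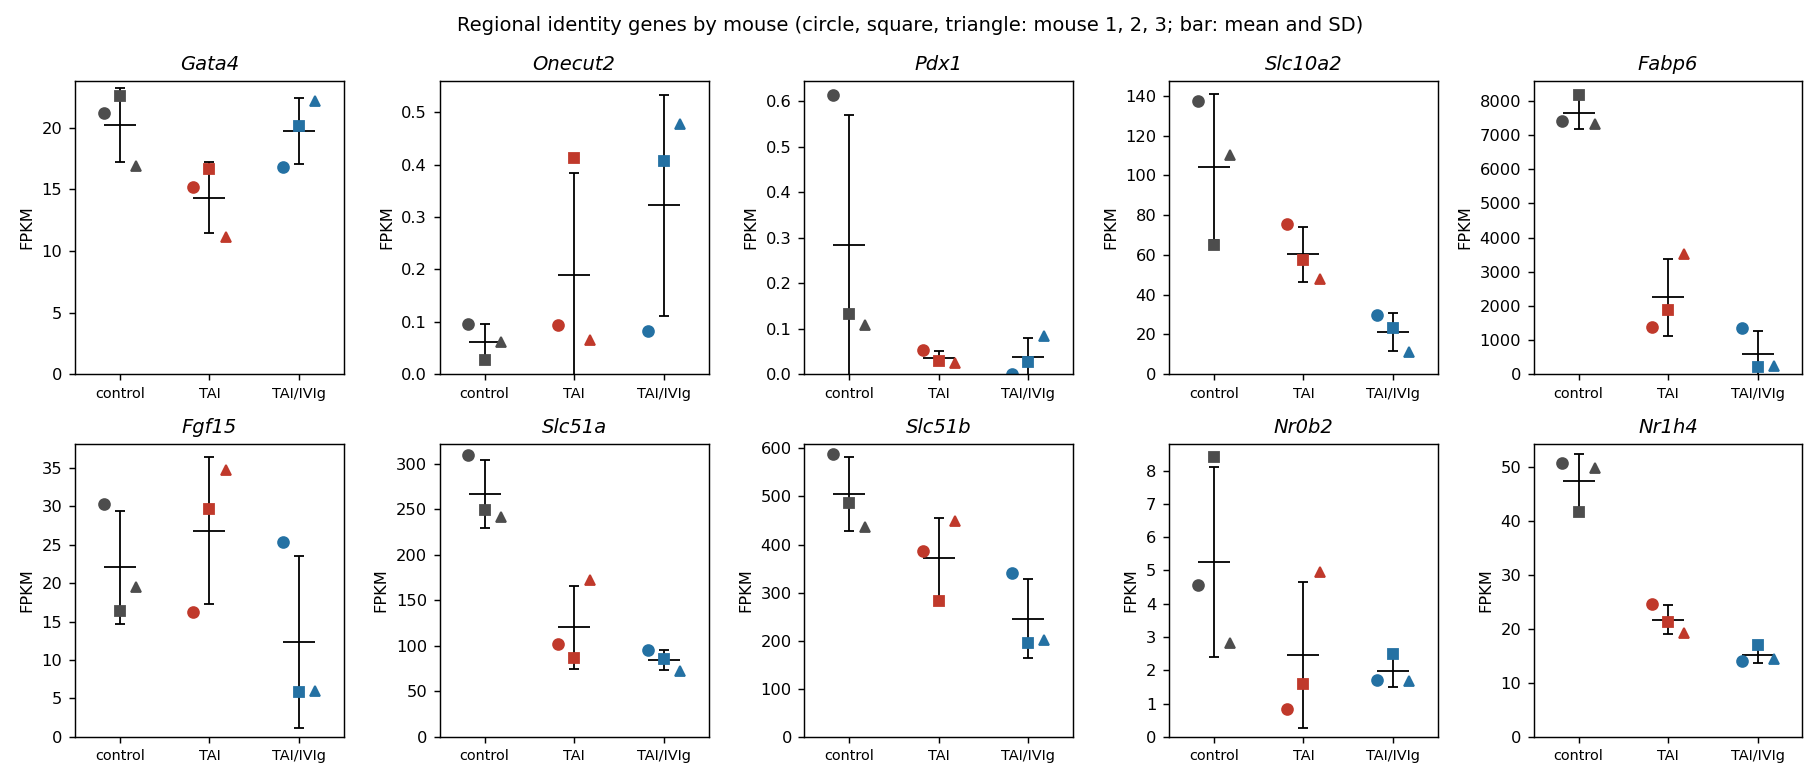
FPKM of the 10 regional genes (vertical axis of each panel, linear and starting at 0) in the control, TAI and TAI/IVIg groups; points are single mice, horizontal bars the group means and error bars the SD of 3 mice. Fabp6 falls from 7326 to 8177 FPKM in the control mice to between 208 and 1351 in the TAI/IVIg mice, whereas Gata4 stays between 11.1 and 22.6.

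Libraries held 16285597 to 18245992 whole reads (median 17314827), recovered from the steps of the FPKM values. Compared with control, 1150 genes were called higher and 3411 lower in TAI, and 1183 were called higher and 4880 lower in TAI/IVIg. The median log2 fold change of all genes was -0.23 and -0.39. It came to 0.05 and 0.10 when library medians were set equal, and the calls were then 2159 higher and 1823 lower in TAI and 2880 higher and 1894 lower in TAI/IVIg. Limma called 0 genes in either direction between TAI/IVIg and TAI, where an unadjusted p under 0.05 was reached by 214 that were higher and 1466 that were lower. The median of that comparison was -0.13, and 0.08 with library medians set equal. The labelled tissue is jejunal epithelium, and the epithelial marker list summed to 6477 to 9556 FPKM over the 9 mice, yet 6 smooth muscle markers summed to 112.6 to 765.1 FPKM, so smooth muscle transcripts were part of the pieces. Such bulk RNA cannot tell fewer cells of a type from less RNA per cell.

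The first question was whether the proximal genes marked the pieces alike. Gata4 (ENSMUSG00000021944, chr14:63198922-63271692 on the minus strand) stood at 21.2, 22.6 and 16.9 FPKM in control mice 1, 2 and 3. In TAI mice 1, 2 and 3 it was 15.2, 16.7 and 11.1 FPKM, and in the TAI/IVIg mice 16.8, 20.1 and 22.2 FPKM. Every TAI mouse thus lay under every control mouse and under every TAI/IVIg mouse, by a small margin, whereas TAI/IVIg and control overlapped. The log2 fold change was -0.48 ± 0.18 (SE) in TAI against control (limma, adjusted p = 0.0713), -0.03 in TAI/IVIg against control (adjusted p = 0.889) and 0.44 in TAI/IVIg against TAI (adjusted p = 0.377). With the mouse number as a block, the first difference was called in the 6 control and TAI mice alone (adjusted p = 0.0264) and not in all 9 mice (adjusted p = 0.0702). Over all alternatives it ran from -0.60 to -0.19, and the median of all genes in the main fit was -0.23. The sign of the TAI/IVIg to control difference changed with scaling, and it was 0.46 with library medians set equal.

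Onecut2 (ENSMUSG00000045991) was measured at 0.0957, 0.0279 and 0.0605 FPKM in the control mice, from 27, 8 and 17 reads. It reached 0.0935, 0.412 and 0.0641 FPKM in the TAI mice and 0.0822, 0.406 and 0.477 FPKM in the TAI/IVIg mice. The 3 mice that stood apart, TAI 2, TAI/IVIg 2 and TAI/IVIg 3, had 109, 112 and 130 reads, against 8 to 27 in the other 6. TAI overlapped with control through TAI 1 and 3, and TAI/IVIg with control through TAI/IVIg 1.

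Pdx1 (ENSMUSG00000029644, chr5:147269959-147275848 on the plus strand) was near the limit of detection. Control mice had 23, 5 and 4 reads, or 0.613, 0.131 and 0.107 FPKM. TAI mice had 2, 1 and 1 reads and TAI/IVIg mice 0, 1 and 3. Each control mouse was above each irradiated mouse, but control 1 alone held most of the control reads. Pdx1 and Gata4 were therefore highest in control mice or level with them, whereas Onecut2 was highest in irradiated mice, so the 3 proximal genes did not move as a group.

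Among the ileal genes, Fabp6 (ENSMUSG00000020405, chr11:43596049-43601540 on the minus strand) was the most abundant. Its levels were 7415, 8177 and 7326 FPKM in the control mice, where it ranked 5, 4 and 2 among all genes and made up 2.06% to 2.25% of all FPKM. In the TAI mice it was 1372, 1874 and 3529 FPKM, and in the TAI/IVIg mice 1351, 208 and 229 FPKM. Control mice lay within a factor of 1.12 of each other, whereas the highest TAI mouse was 2.57 times the lowest and the highest TAI/IVIg mouse 6.49 times the lowest. TAI/IVIg 1 was level with TAI 1 and far above TAI/IVIg 2 and 3, and each group lay wholly below the one before it.

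The Fabp6 log2 fold change was -1.87 ± 0.66 (SE) in TAI against control (limma, adjusted p = 0.0549), -4.25 ± 0.66 in TAI/IVIg against control (adjusted p = 0.00161) and -2.38 ± 0.66 in TAI/IVIg against TAI (adjusted p = 0.353). The mean in TAI/IVIg was 12.8-fold lower than in control. The TAI difference missed the threshold in the fit of all mice, which takes in the spread of the TAI/IVIg group. It passed in the fit of the 6 control and TAI mice (adjusted p = 0.00947), with the mouse number as a block in those 6 mice (adjusted p = 0.0133), without TAI/IVIg 1 (adjusted p = 0.00453) and without TAI/IVIg 2 (adjusted p = 0.0481). It did not pass with the block in all 9 mice (adjusted p = 0.0803).

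Fabp6 is a known target of FXR, and its upstream sequence is shown because the gene carried the largest drop among the 10. FXR binds an inverted repeat of 2 half-sites parted by 1 base. It was searched here as AGGTCA, any base and TGACCT, which reads the same on both strands, with its 12 fixed letters compared. The 250 bases before the start of Fabp6 (RefSeq, GRCm38.p6, chr11:43601563-43601812, minus strand) are given 5′ to 3′, with capitals on the stretches that share 10 of the 12 letters.
Fabp6 upstream: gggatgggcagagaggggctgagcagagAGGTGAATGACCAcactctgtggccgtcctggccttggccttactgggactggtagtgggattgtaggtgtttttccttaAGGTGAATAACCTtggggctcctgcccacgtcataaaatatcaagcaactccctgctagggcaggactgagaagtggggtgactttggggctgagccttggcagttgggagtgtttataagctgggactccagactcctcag
The stretches begin 222 and 142 bases before the start. Of 32851 windows of 300 bases in the same table, 1.14% held a stretch with 10 or more of the letters, and 4 windows, or 0.0122%, held at least 2 such stretches. RefSeq windows were matched for 7 of the 10 genes.

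The other windows came less close, and the best stretches of the transporter pair are shown for comparison, with capitals over the whole stretch, since 9 of the 12 letters are shared in each.
Slc51a: AGGACTTTGTCCT
Slc51b: GGGTCATTCACCC
The first lies at chr16:32487946-32487958 and the second at chr9:65422948-65422960, both on the minus strand, and 11.4% of all windows held a stretch as close. Slc10a2, Nr0b2, Nr1h4 and Pdx1 shared 8 letters at best, as did 56.4% of windows at least. The windows follow RefSeq starts, which differ for some genes from the gene spans given here. The Slc51b stretch crosses the 5′ end of its span, and those of Nr1h4 and Pdx1 lie inside theirs. A match is a description of letters and not of binding, which was not measured here.

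Slc10a2 (ENSMUSG00000023073, chr8:5083219-5105351 on the minus strand), which brings bile acids in from the lumen, stood at 138, 64.9 and 110 FPKM in the control mice. TAI mice had 75.5, 57.2 and 48.1 FPKM and TAI/IVIg mice 29.5, 23.1 and 10.96 FPKM. TAI overlapped with control only through control 2, and all 3 TAI/IVIg mice were below every other mouse. Its log2 fold change was -0.74 ± 0.38 (SE) in TAI (limma, adjusted p = 0.158, with the mouse number as a block 0.0461 in the 6 control and TAI mice and 0.0971 in all 9), -2.28 ± 0.38 in TAI/IVIg against control (adjusted p = 0.00208) and -1.55 ± 0.38 between the irradiated groups (adjusted p = 0.353).

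The basolateral exporter is a heterodimer, and its subunits differed. Slc51a (ENSMUSG00000035699, chr16:32474504-32487879 on the minus strand) was at 310, 249.2 and 241 FPKM in control, 102, 86.8 and 172 FPKM in TAI and 95.0, 85.4 and 72.5 FPKM in TAI/IVIg. All irradiated mice were below all control mice, and TAI 3 was the highest of them. Slc51a was called lower in TAI (log2 fold change -1.20 ± 0.25 SE, limma, adjusted p = 0.00759) and in TAI/IVIg against control (-1.65 ± 0.25, adjusted p = 0.0014), with -0.45 ± 0.25 between the irradiated groups (adjusted p = 0.441).

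Slc51b (ENSMUSG00000053862, chr9:65412714-65422955 on the minus strand) was at 588, 487 and 437 FPKM in control, 386, 283 and 448 FPKM in TAI and 341, 195 and 202 FPKM in TAI/IVIg. TAI 3 reached the control range, and TAI/IVIg 1 was within the range of the TAI mice. Slc51b changed by -0.45 ± 0.26 (SE) in TAI (limma, adjusted p = 0.206) and was called lower in TAI/IVIg against control (-1.07 ± 0.26, adjusted p = 0.00991). The latter call was lost with library medians set equal (-0.58, adjusted p = 0.202).

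Nr1h4 (ENSMUSG00000047638, chr10:89454234-89533585 on the minus strand), which encodes the bile acid receptor FXR, had the smallest spread between mice of the 8 tested genes. Control mice were at 50.7, 41.7 and 49.9 FPKM, TAI mice at 24.6, 21.3 and 19.2 FPKM and TAI/IVIg mice at 14.1, 17.1 and 14.4 FPKM. The 3 groups did not overlap, and the level in TAI was 2.18-fold lower than in control. It was called lower in TAI (log2 fold change -1.09 ± 0.14 SE, limma, adjusted p = 0.00127) and in TAI/IVIg against control (-1.58 ± 0.14, adjusted p = 0.000194), whereas the step of -0.48 ± 0.14 from TAI to TAI/IVIg did not pass (adjusted p = 0.353).

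For the FXR targets Fgf15 and Nr0b2, no difference passed the threshold in the fit of all mice. Fgf15 (ENSMUSG00000031073, chr7:144896531-144900953 on the plus strand) was at 30.3, 16.4 and 19.5 FPKM in control, 16.2, 29.7 and 34.7 FPKM in TAI and 25.3, 5.85 and 6.02 FPKM in TAI/IVIg. TAI/IVIg 2 and 3 were far below the other 7 mice, and TAI/IVIg 1 lay within the control range. The log2 fold change was 0.25 ± 0.52 (SE) in TAI (limma, adjusted p = 0.725) and -1.05 ± 0.52 in TAI/IVIg against control (adjusted p = 0.124). Without TAI/IVIg 1 the latter became -1.69 and was called (adjusted p = 0.00842).

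Nr0b2 (ENSMUSG00000037583, chr4:133553376-133556536 on the plus strand) was at 4.57, 8.40 and 2.81 FPKM in control, 0.825, 1.57 and 4.94 FPKM in TAI and 1.72, 2.496 and 1.69 FPKM in TAI/IVIg. It rested on few reads, 16 to 168 a mouse, and TAI 3 lay inside the control range. The log2 fold change was -0.95 ± 0.44 (SE) in TAI (limma, adjusted p = 0.127) and -0.99 ± 0.44 in TAI/IVIg against control (adjusted p = 0.0956). Without TAI 3 these became -1.43 (adjusted p = 0.0259) and -0.99 (adjusted p = 0.0385).

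**Figure D2:**
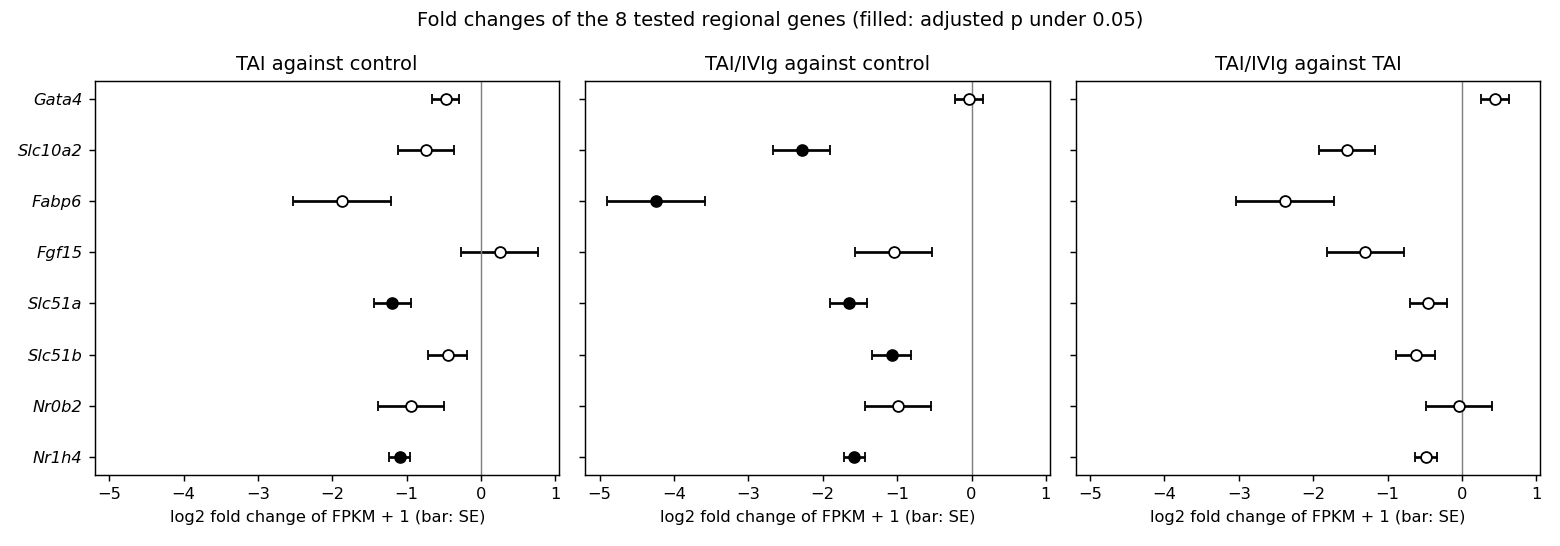
Log2 fold change of FPKM + 1 (horizontal axis; bars are SE) of the 8 tested regional genes in the 3 comparisons, with filled points where the adjusted p was under 0.05. Slc51a and Nr1h4 are filled in TAI against control and 5 ileal genes in TAI/IVIg against control, and no point is filled in TAI/IVIg against TAI.

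Counted as a list, 2 of the 7 ileal genes were called lower in TAI against control, Slc51a and Nr1h4, where 26.1% of all tested genes were called lower. With the mouse number as a block, 4 were called lower in the 6 control and TAI mice, adding Slc10a2 and Fabp6, and 2 in all 9 mice. In 3 of the 7 the TAI mice lay wholly below the control mice, as in 38% of all genes, and the median log2 fold change of the list was -0.95 against -0.23 for all genes. In TAI/IVIg against control 5 of 7 were called lower, where 37.4% of all genes were. Wholly lower levels were seen for 6 of 7, as in 44.3% of all genes, with a median of -1.58 against -0.39. Neither contrast called an ileal gene higher.

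Between TAI/IVIg and TAI, 0 of the 7 were called at the adjusted threshold, as 0% of all genes were (limma). At an unadjusted p under 0.05, 5 of 7 were lower, where 11.2% of all genes were. For 3 of 7, Slc10a2, Fabp6 and Nr1h4, each TAI/IVIg mouse was below each TAI mouse, as for 16.1% of all genes, and the median was -0.62 against -0.13. The comparisons share the control or TAI mice and are therefore not independent of each other.

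The spread between mice of a group was uneven. Over all tested genes the median within-group SD of log2(FPKM + 1) was 0.24. Fabp6 had an SD of 0.09 in control, at the 12.1 percentile of all genes, but 0.69 in TAI and 1.52 in TAI/IVIg, at the 96.6 and 99.3 percentiles. Fgf15 likewise reached 1.11 in TAI/IVIg, at the 98 percentile, while Nr1h4 had SDs of 0.15, 0.17 and 0.14 in the 3 groups. The irradiated pieces thus differed from each other more than the control pieces did for some ileal genes, such as Fabp6. Slc10a2 and Nr0b2 varied in control too. Their SDs in control, TAI and TAI/IVIg were 0.55, 0.32 and 0.70 for Slc10a2, and 0.65, 0.88 and 0.21 for Nr0b2.

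The same mice recurred at the ends of these ranges. TAI 3 was the highest TAI mouse for 5 of the 7 ileal genes, Fabp6, Fgf15, Slc51a, Slc51b and Nr0b2, and TAI/IVIg 1 was the highest of its group for 5, Slc10a2, Fabp6, Fgf15, Slc51a and Slc51b. Both were also the lowest of their groups for 6 of 8 further proximal genes and for Gata4. Some genes went the other way. TAI 3 was the lowest TAI mouse for Slc10a2 and Nr1h4, TAI/IVIg 1 was the lowest of its group for Nr1h4, and the proximal gene Ada was highest in both mice. Within their groups these mice thus had more of most ileal transcripts and less of most proximal ones. Among the control mice, control 1 was the highest for 5 ileal genes and for 3 of the 8 proximal ones, so the opposition was not seen there.

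Further proximal genes were listed to extend the 3 above, and 8 of the 14 listed were tested. In TAI 4 were called higher, where 8.81% of all genes were, and 1 was called lower, where 26.1% were. Ada, an adenosine deaminase, rose from 52.6, 23.2 and 46.3 FPKM in control to 1444, 795 and 2233 FPKM in TAI and stood at 2148, 777 and 1279 FPKM in TAI/IVIg. Its log2 fold changes against control were 5.12 and 5.03 (limma, adjusted p = 0.000385 and 0.000257). No irradiated mouse was near a control mouse, and TAI and TAI/IVIg overlapped.

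Lct, the lactase of the brush border, was at 6.84, 16.6 and 4.82 FPKM in control, 190, 210 and 106 FPKM in TAI and 216, 341 and 343 FPKM in TAI/IVIg. All irradiated mice were higher than all control mice, with log2 fold changes of 4.13 and 4.99 (limma, adjusted p = 0.000507 and 0.000153). Slc46a1, the proton-coupled folate transporter, was at 0.934, 0.900 and 0.938 FPKM in control, 15.9, 17.9 and 11.7 FPKM in TAI and 21.6, 23.8 and 39.4 FPKM in TAI/IVIg. It rose by 3.05 and 3.88 on the log2 scale (limma, adjusted p = 0.000207 and 5.18e-05).

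Fabp1, the fatty acid carrier that Fabp6 resembles in fold, was at 612, 350 and 349 FPKM in control, 1201, 1536 and 978 FPKM in TAI and 1477, 4870 and 4182 FPKM in TAI/IVIg. The mice with the least Fabp6, TAI/IVIg 2 and 3, had the most Fabp1. Its log2 fold changes were 1.53 (limma, adjusted p = 0.0277) and 2.88 (adjusted p = 0.00155), and the TAI call was lost when control 2, control 3, TAI 1 or TAI 2 was left out (adjusted p = 0.0853, 0.0856, 0.079 and 0.0832).

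The duodenal hormone genes went apart. Gip was at 13.3, 16.6 and 12.4 FPKM in control, 27.0, 50.1 and 16.0 FPKM in TAI and 32.4, 63.1 and 65.3 FPKM in TAI/IVIg, and was called higher in TAI/IVIg against control (1.80, limma, adjusted p = 0.00655). TAI 2, TAI/IVIg 2 and TAI/IVIg 3, the highest mice for Gip, were also those with the most Onecut2. Cck was called lower in TAI (-1.28, limma, adjusted p = 0.0134) and in TAI/IVIg (-0.996, adjusted p = 0.0271), from 3.54 to 5.20 FPKM in control to 0.672 to 2.17 and 0.810 to 2.47 FPKM. The call of Cck in TAI/IVIg was lost with library medians set equal (adjusted p = 0.243) and when control 1, control 2 or TAI/IVIg 1 was left out (adjusted p = 0.0707, 0.0734 and 0.0742).

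In TAI/IVIg against control 5 of the 8 proximal genes were called higher, where 9.06% of all genes were, and 1 was called lower, where 37.4% were. The list's median log2 fold change was 1.24 in TAI and 2.34 in TAI/IVIg against control, beside -0.23 and -0.39 for all genes. It was 0.56 between TAI/IVIg and TAI, beside -0.13, and 0 of 8 were called. Slc11a2 and S100g, of the same list, were tested and not called. In TAI and TAI/IVIg against control their log2 fold changes were -0.455 and -0.391 for Slc11a2, and 0.448 and -0.124 for S100g. The ferric reductase gene Cybrd1, the iron exporter gene Slc40a1 and the calcium channel gene Trpv6, all best known from duodenum, did not pass the filter and stayed at or below 1.87 FPKM.

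**Figure D3:**
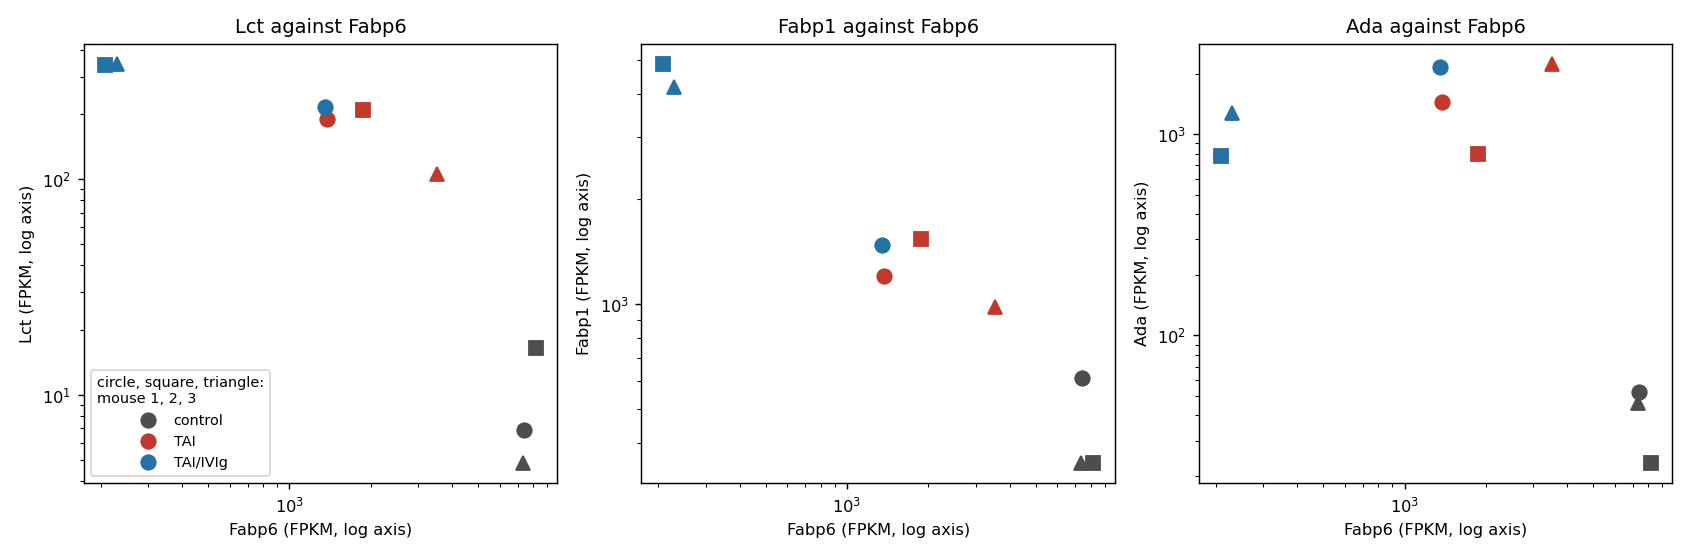
FPKM of Lct, Fabp1 and Ada (vertical axes) against FPKM of Fabp6 (horizontal axes), all on log axes, with 1 point per mouse coloured by group. The 3 control mice lie at the lower right of each panel, TAI/IVIg 2 and 3 at the far left with 208 and 229 FPKM of Fabp6, and TAI/IVIg 1 beside the TAI mice.

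The other ileal genes went both ways. Cubn and Amn, the receptor pair for intrinsic factor and vitamin B12, and the phosphate transporter Slc34a2 were called higher in TAI (log2 fold changes 2.15, 1.22 and 1.77, limma, adjusted p = 0.000595, 0.00677 and 0.00202). Cubn went from 4.51, 6.42 and 3.37 FPKM in control to 23.3, 19.6 and 29.8 FPKM in TAI and 21.8, 20.6 and 16.4 FPKM in TAI/IVIg. Slc34a2 went from 117, 62.8 and 72.0 FPKM to 303, 217.5 and 328 FPKM and to 357, 255.5 and 340 FPKM. For both genes, and for Amn, every irradiated mouse was above every control mouse.

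Pyy, a hormone of the distal bowel, was called lower in TAI (-0.86, limma, adjusted p = 0.036) and in TAI/IVIg (-1.23, adjusted p = 0.00624), and Gcg, which encodes proglucagon, in TAI/IVIg against control (-2.26, adjusted p = 0.00263). The Pyy call in TAI was lost with no filter (adjusted p = 0.0828), with library medians set equal (adjusted p = 0.188), and when any of control 1, 2 and 3 or TAI 1 and 2 was left out (adjusted p = 0.0955, 0.0658, 0.0729, 0.131 and 0.0833). It was also lost with the mouse number as a block in all 9 mice (adjusted p = 0.0542). The Pyy call in TAI/IVIg was lost with library medians set equal (-0.74, adjusted p = 0.0917). Of these 7 ileal genes 3 were called higher and 1 lower in TAI, where 8.81% and 26.1% of all genes were. In TAI/IVIg against control 3 were called higher and 2 lower, where 9.06% and 37.4% were. The medians of the list were 0.47 and 0.23, beside -0.23 and -0.39 for all genes. Cubn and Amn were thus higher in the same pieces in which Slc51a and Nr1h4 were lower. Against TAI, 0 of the 7 were called in TAI/IVIg. The 8 hormone cell markers summed to 48.24 to 55.07 FPKM in control, 23.15 to 32.84 in TAI and 20.16 to 26 in TAI/IVIg. Of 5 tested, 1 was called lower against control in both contrasts, Chga (-1.65 and -1.74, limma, adjusted p = 0.000315 and 0.000153). For all genes that share was 26.1% and 37.4%. Pcsk1 was called higher in both, where 8.81% and 9.06% were. Their part in the levels of Pyy, Gcg and Cck was not tested.

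**Figure D4:**
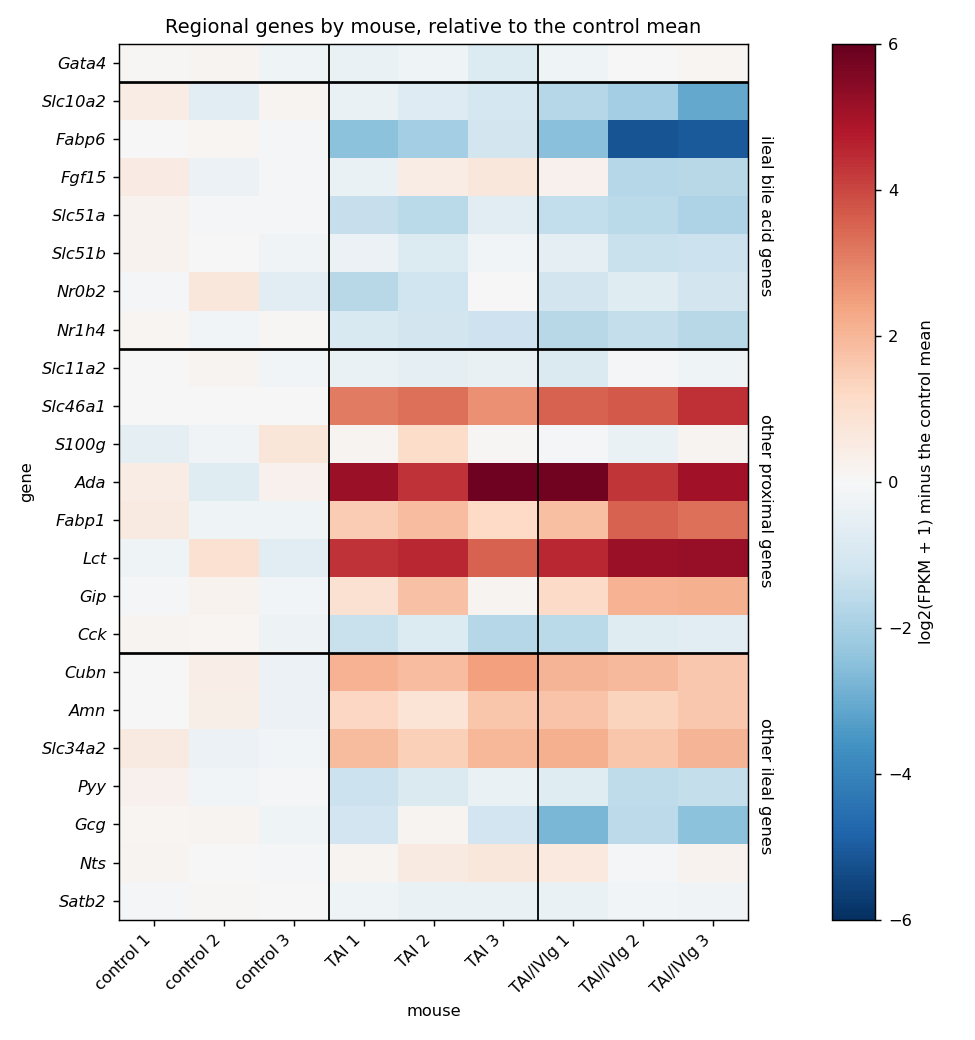
Log2(FPKM + 1) minus the mean of the control mice (colour scale, red higher and blue lower) for 23 tested regional genes (rows) in the 9 mice (columns), with black lines between gene lists and groups. Ada, Lct and Slc46a1 are red in all 6 irradiated mice, Cubn, Amn and Slc34a2 are red as well, and Fabp6 is darkest in TAI/IVIg 2 and 3.

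The wider bile acid and FXR pathway was described by 27 genes, of which 18 were tested. In TAI 4 were called higher and 3 lower, where 8.81% and 26.1% of all genes were. For TAI/IVIg against control the counts were 6 higher and 3 lower, where 9.06% and 37.4% were. The medians were 0.07 and 0.16, beside -0.23 and -0.39 for all genes. Cyp3a11, a cytochrome that oxidises bile acids and drugs, went from 0.237, 1.04 and 0.363 FPKM in control to 71.0, 61.5 and 56.8 FPKM in TAI and 83.8, 158 and 106 FPKM in TAI/IVIg. These levels were 115-fold and 212-fold the control mean, with log2 fold changes of 5.40 and 6.23 (limma, adjusted p = 4.18e-05 and 1.19e-05). Cyp27a1, which hydroxylates sterols, rose from 7.03 to 9.90 FPKM to 34.8 to 36.6 FPKM in TAI and 37.7 to 54.5 FPKM in TAI/IVIg.

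Malrd1, a membrane protein that promotes Fgf15 output, was called higher in both contrasts (1.0 and 0.68), as was Baat, which conjugates bile acids (0.79 and 0.57). Abcg5, a subunit of a sterol exporter, and the xenobiotic receptor gene Nr1i2 were added in TAI/IVIg (0.78 and 0.52). The genes called lower in both were Nr5a2, a nuclear receptor that is itself repressed by SHP, the exporter Abcc3 and the carbonic anhydrase Car12. Several of the smaller changes hung on single mice. Without control 3, the TAI/IVIg calls of Malrd1, Baat, Abcg5 and Nr1i2 were lost (adjusted p = 0.0545, 0.097, 0.119 and 0.0844). Without TAI/IVIg 2 those of Baat and Abcg5 were lost (adjusted p = 0.077 and 0.0962), without TAI/IVIg 3 those of Baat, Abcg5 and Nr1i2 (adjusted p = 0.0773, 0.108 and 0.0886), without control 1 that of Baat (adjusted p = 0.0784) and without control 2 that of Nr1i2 (adjusted p = 0.0877). The TAI call of Car12 was lost without control 2, TAI 1 or TAI 3 (adjusted p = 0.0611, 0.0731 and 0.0679). Nr5a2 fell from 4.76, 7.45 and 6.10 FPKM to 1.18, 1.21 and 0.836 FPKM in TAI and 0.556, 1.70 and 0.869 FPKM in TAI/IVIg. Between TAI/IVIg and TAI 0 of the 18 were called.

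Rxra and Rxrb, which encode partners of FXR, were not called and stayed at 14.6 to 20.6 and 3.75 to 8.39 FPKM over the 9 mice. Enzymes of bile acid synthesis that belong to the liver, Cyp7a1 and Cyp8b1, were at or below 0.150 FPKM in all mice.

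Transcription factors of the whole intestine gave a background for Gata4. Of 8 tested, Gata6 was called higher in TAI and TAI/IVIg (log2 fold changes 1.03 and 1.12, limma, adjusted p = 0.00182 and 0.000844), from 6.08 to 8.05 FPKM in control to 12.8 to 17.8 and 16.0 to 16.7 FPKM. Cdx1 was called lower in both (-0.70 and -0.53, adjusted p = 0.0122 and 0.0285) and Cdx2, a factor that specifies intestine, in TAI (-0.66, adjusted p = 0.0236). With library medians set equal neither kept its call (adjusted p = 0.0972 for Cdx1 and 0.265 for Cdx2 in TAI). Cdx2 also lost its call when any 1 control or TAI mouse but control 2 was left out (adjusted p = 0.0501 to 0.0884), and Cdx1 in TAI/IVIg without control 2, control 3 or TAI/IVIg 3 (adjusted p = 0.0845, 0.0829 and 0.101). Hnf4a was at 171 to 235 FPKM in all 9 mice, and Gata5 at 29.8 to 44.0 FPKM.

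Other organs left little trace in the pieces. Of 8 pancreas markers, 6 were in the table and none passed 0.312 FPKM, and of 5 stomach markers 4 were in the table with at most 0.0942 FPKM. Of 5 colon markers only B4galnt2 was above 1 FPKM, with 30.9 to 47.8 FPKM in control, 85.1 to 125 FPKM in TAI and a mean of 102 FPKM in TAI/IVIg. It was called higher against control in TAI and TAI/IVIg (log2 fold changes 1.399 and 1.295, limma, adjusted p = 0.00203 and 0.00181). Hoxb13, Car1, Aqp8 and Insl5 stayed at or below 0.286 FPKM. Of 5 liver markers only Alb was above 1 FPKM, at 5.92 to 9.30 FPKM.

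The summed transcripts of some cell type markers also differed between mice. The 10 enterocyte markers summed to 13340 to 21330 FPKM in control, 29300 to 50750 in TAI and 40920 to 48410 in TAI/IVIg. Fabp2 and Apoa1 made up most of the sum. Against control, 5 of the 10 were called higher in TAI, where 8.81% of all genes were, and 6 in TAI/IVIg, where 9.06% were. None was called lower, where 26.1% and 37.4% of all genes were. For the marker Sis, though, every TAI mouse lay below every control mouse (log2 fold change -1.12, limma, adjusted p = 0.0631). Smooth muscle markers, 6 of 6 detected, summed to 481.6 to 620.7 FPKM in control, 536.2 to 765.1 in TAI and 112.6 to 553.8 in TAI/IVIg. Fibroblast markers, also 6 of 6, summed to 65.83 to 92.09, 73.73 to 94.18 and 21.09 to 47.94 FPKM. In TAI/IVIg against control 4 of the 6 fibroblast and 0 of the 6 smooth muscle genes were called lower, where 37.4% of all genes were. In TAI/IVIg against TAI 0 of either list were called. Each TAI/IVIg mouse was below each TAI mouse for 6 fibroblast genes and 1 smooth muscle gene, as for 16.1% of all genes. TAI/IVIg 3 was the lowest mouse in both lists and TAI/IVIg 1 the highest of its group, the order seen for Slc10a2, and their part in the results was not tested. With any 1 of the 9 mice left out, the Fabp6 log2 fold change in TAI/IVIg against control stayed between -5.12 and -3.77, and 5 or 6 of the 7 ileal genes were called lower.

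The 6 immune markers summed to 63.39 to 388.1 FPKM in control, 42.02 to 232.6 in TAI and 26.08 to 239.2 in TAI/IVIg, with control 3, TAI 3 and TAI/IVIg 2 highest. Leaving out these 3 mice together, Slc51b lost its call in TAI/IVIg against control (-1.03, limma, adjusted p = 0.0509) and Nr0b2 was called lower in both contrasts (-1.74 and -1.42, adjusted p = 0.0275 and 0.0205). Fgf15 in TAI then stood at -0.02. When the epithelial list was set equal instead, calls of the ileal genes stayed as they were in all 3 comparisons.

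**Figure D5:**
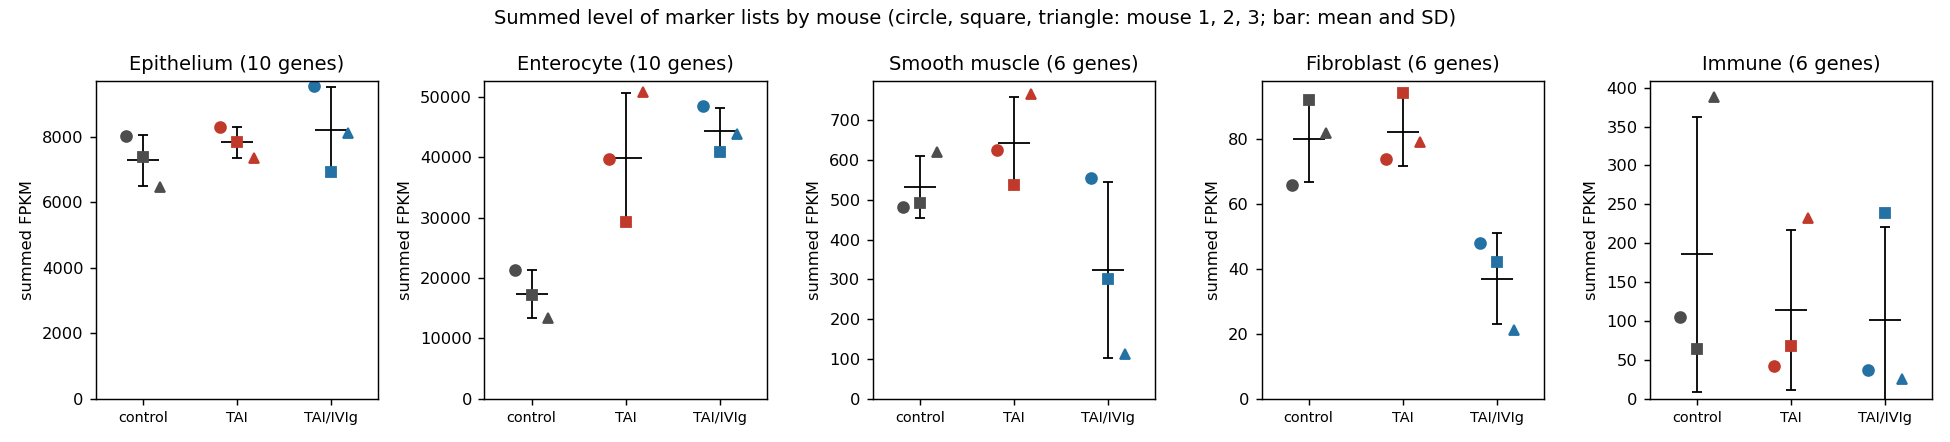
Summed FPKM of 5 marker lists (vertical axes, linear from 0) by group; points are single mice, horizontal bars the means and error bars the SD of 3 mice. The enterocyte sum is higher in all irradiated mice than in all control mice, and the smooth muscle sum is lowest in TAI/IVIg 3 at 112.6 FPKM.

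The genes whose levels most resembled those of Fabp6 over the 9 mice were Suox, Lrrc49, Hoxb7, Klf11 and the pseudogene Ube2n-ps1, with Pearson r of 0.972, 0.958, 0.954, 0.953 and 0.950 among 13055 genes. Suox, sulfite oxidase, averaged 191, 70.4 and 21 FPKM in control, TAI and TAI/IVIg. Slc51b came 13th of all genes with r = 0.942, Slc51a had 0.885, Slc10a2 0.867, Nr1h4 0.813, Fgf15 0.768 and Nr0b2 0.591. The mice share their group differences, so these values are descriptions. The closest to Gata4 were Ckmt1, Ovol2, Apol10a, Yipf5 and Insl6 (r = 0.930, 0.914, 0.906, 0.899 and 0.899), and Gata4 itself had r = -0.175 with Fabp6.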

How the data were processed

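Jejunal RNA of 9 mice was analysed, 3 per group as the labels give them. Values are FPKM as deposited by the authors, unpooled, and 0 columns of the table were left out. The submitters' processing notes name FastQC, Trimmomatic, STAR, featureCounts and DESeq2 and the builds mm10 and GRCm38, without roles or versions. The methods name TRIzol extraction and an online system for differential expression. Coordinates are those of GENCODE M21 (GRCm38), whose gene lengths equalled the lengths implied by the values for 13849 of 14192 genes compared. Symbols were paired with 31146 identifiers.

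Log2(FPKM + 1), with a pseudocount of 1, was analysed in R 4.3.3 (limma 3.58.1) by a model of the 3 groups over all 9 mice, and variances were moderated with a trend. The 2-sided tests were corrected after Benjamini and Hochberg over the 13056 genes with at least 1 FPKM in at least 3 mice. The steps were tested on simulated data. Whole reads were recovered from the FPKM values within 0.001 of a read. For 505 genes a common factor was needed, and the summed reads differed from the library totals by at most 0.0129%. Depth limits Onecut2, Pdx1 and Nr0b2, whose reads are given.

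The labels number the mice of each group 1 to 3 and do not say what a number means. Control and TAI mice with a number in common deviated together from their group means (r = 0.271, 0.241 and 0.308). TAI/IVIg mice did so less evenly. TAI/IVIg 1 had r = 0.185 with control 1 and 0.201 with TAI 1. For numbers 2 and 3, r was -0.136 and -0.296 with control and 0.041 and -0.067 with TAI. The largest r, 0.408, was between control 3 and TAI/IVIg 2, whose numbers differ. These values come from the same data as the fits, so they cannot establish that the numbers pair any mice. The fit with a replicate block is given as an alternative beside the TAI results whose call it changed, and the main fit has no block.

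The 10 genes and all lists were chosen with earlier results of these data known. Every member is named, with up to 4 genes per direction of the other lists that passed the adjusted threshold without overlap between mice, markers near 0, and the 5 genes most like Gata4 and Fabp6. Nr1i2, Gip, Hnf4a, Gata5, Rxra, Rxrb, Slc11a2, S100g, Sis, Chga, Pcsk1 and the untested iron and calcium genes were added after their values were seen. So were 2 fits of voom on the recovered reads and the fit without 3 mice. Other alternatives were a pseudocount of 0.1, other filters, library medians or the epithelial list set equal, quantile normalization, the 6 mice compared, no trend and each mouse left out in turn.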

Additional observations from a re-analysis of the deposited data

How the results depend on the processing

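Of the member fold changes under all alternatives, 491 kept their direction and side of the threshold, 13 gained a call, 3 lost one and 18 turned. Between TAI/IVIg and control, Gata4 became 0.46 with library medians set equal, 0.30 with quantile normalization, 0.17 with the epithelial list set equal and 0.45 (0.445) with voom and median-ratio library sizes, and ran from -0.15 to 0.07 when 1 mouse was left out (0.004, 0.048 and 0.07 without control 1, control 2 and TAI/IVIg 1). Between TAI/IVIg and TAI, Nr0b2 became 0.038 with a pseudocount of 0.1, 0.16 with medians equal, 0.205 with quantile normalization, 0.038 with the epithelial list, 0.037 and 0.215 with voom on total and median-ratio library sizes and 0.32 without control 3, TAI 3 and TAI/IVIg 2, and ran from -0.41 to 0.44 when 1 mouse was left out (0.442, 0.015 and 0.024 without TAI 3, TAI/IVIg 1 and TAI/IVIg 3). Fgf15 in TAI became -0.022 without the 3 mice. None of these was called.

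The ileal genes called lower in TAI were 4 with the replicate block in the 6 mice compared, and 2 or 3 when 1 mouse was left out. In TAI/IVIg against control they were 4 to 6 under all alternatives. The block also changed the call of Nr0b2 in TAI/IVIg against control (limma, adjusted p = 0.0366). Mice with a number in common had r = 0.185, -0.136 and -0.296 there. It changed the call of no other member beside Gata4, Slc10a2 and Fabp6 in TAI. In TAI/IVIg against control the block in the 6 mice also ended the calls of Cck, Cdx1, Baat, Nr1i2 and Abcg5 (adjusted p = 0.0679, 0.0813, 0.0791, 0.105 and 0.0897), and that in all 9 mice the call of Abcg5 (0.0528).

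Counts over all genes moved more. In TAI, genes called higher were 2159 with medians equal, 1994 with quantile normalization, 1976 with voom and median-ratio sizes and 572 without the 3 mice, and 707 to 1318 when 1 mouse was left out (707 without TAI 1). Genes called lower were 2231 with a mean FPKM of at least 5, 1823 with medians equal, 1974 with the epithelial list, 1913 with voom and median-ratio sizes and 1188 without the 3 mice, and 1643 to 3695 when 1 mouse was left out (1956, 2081 and 1643 without control 2, control 3 and TAI 1). In TAI/IVIg against control, genes called higher were 2880 with medians equal, 2407 with quantile normalization and 2419 with voom and median-ratio sizes, and genes called lower were 2465, 1894, 2253, 2537, 3122 and 2379 with a mean FPKM of at least 5, medians equal, quantile normalization, the epithelial list, the replicate block in the 6 mice and voom with median-ratio sizes. Between TAI/IVIg and TAI, 4 genes were called lower with no filter and 3 with the block in all 9 mice. Pyy lost its TAI/IVIg call with voom and median-ratio sizes (adjusted p = 0.073). The cause was not tested. The planned count-model tests were not run, since the deposited unit is FPKM.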

Other observations

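Hox genes mark position along the body axis and are carried by both epithelium and the muscle wall. They were looked at after Hoxb7 had appeared among the genes most like Fabp6, so their values are a description. The table holds 31 of them, and 9 were above the filter. The posterior groups, from group 9 on, stayed at or below 0.358 FPKM in all 9 mice. Hoxb7 was at 2.80, 2.68 and 2.43 FPKM in control, 1.81, 1.83 and 2.31 FPKM in TAI and 2.27, 1.03 and 1.27 FPKM in TAI/IVIg. TAI 3 and TAI/IVIg 1 were the highest of their groups, as for Fabp6. Hoxb7 was picked for its likeness to Fabp6 over these mice, so this shared order is no separate observation. Hoxb6 averaged 1.53, 2.43 and 1.11 FPKM and Hoxc8 3.29, 3.07 and 1.45 FPKM in control, TAI and TAI/IVIg. The TAI mice lay above all control mice for Hoxb6 and overlapped with them for Hoxc8. TAI/IVIg 3 was the lowest of all 9 mice for 7 of the 9 Hox genes above the filter, and it was also the mouse with the least smooth muscle and fibroblast transcripts, whose part in this was not tested.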
